A study of Mus musculus with 16 samples.

Results

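The data described here are the levels of 9 genes known as markers of homeostatic microglia, Tmem119, Cx3cr1, Fcrls, Gpr34, Olfml3, Selplg, Sparc, Crybb1 and Slco2b1, in sorted mouse microglia. The genes were taken by name and not by a rule on their values, though earlier results of these data were known. All 9 of the 9 names were found among the 17951 genes of the deposited table. Bulk RNA was sequenced from 16 libraries. There were 7 from WT mice (Me-X04-), 5 from Me-X04- and 4 from Me-X04+ microglia of transgenic (TG) 5xFAD mice. The comparison of TG Me-X04+ with TG Me-X04- asked what distinguishes microglia that carry amyloid from those that do not, and the comparisons with WT asked what the genotype adds. From here on Me-X04- and Me-X04+ stand for the 2 TG groups.

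5xFAD mice carry transgenes for mutant human proteins of familial Alzheimer's disease under the Thy1 promoter, which drives them in neurons, and they form Aβ plaques. The WT animals lacked the transgenes. Every animal, WT included, was injected with methoxy-X04 (Me-X04), which crosses into the brain and makes Aβ aggregates fluoresce, so a sorted cell that is Me-X04+ holds or carries dyed amyloid. By label, WT mice were 2 and TG mice 6 months old, whereas the methods of the study give other ages, so by the labels age and genotype cannot be told apart in either comparison with WT. The cells were gated on Cd11b and Cd45, and the methods add a gate on the CX3CR1 protein. The level of Cx3cr1 RNA was therefore measured in cells already chosen for its product. By the genotype labels, libraries 1 to 4 of both TG groups come from the same 4 animals, and library 5 of TG Me-X04- has no partner.

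Homeostatic microglia are the ramified, surveying cells of the undisturbed brain. They are set apart from other macrophages by a group of genes whose expression depends on the brain environment, in part on TGF-β signalling and on transcription factors such as SALL1, MEF2C and PU.1. In mouse models with plaques, many of these genes are known to decline in microglia at the plaque while a disease-associated programme rises. The 9 genes do unlike things. Cx3cr1 encodes the receptor for fractalkine, a chemokine of neurons, and Gpr34 a receptor for lysophosphatidylserine. Selplg encodes PSGL-1, a sialomucin that binds selectins, and Fcrls an Fc receptor-like scavenger molecule. Tmem119 encodes a transmembrane protein widely used to tell microglia from other macrophages. Slco2b1 encodes an organic anion transporter, Sparc and Olfml3 encode secreted matrix proteins, and Crybb1 encodes a β-crystallin best known from the lens.

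The values are log2 RPKM (reads relative to gene length and to the TMM-scaled library size), in which 1 unit is a doubling. The reads per library on genes of the table ran from 15623664 to 22119327 in WT, from 17216633 to 25184600 in Me-X04- and from 22430251 to 27579017 in Me-X04+. Mitochondrial genes took 12.6 to 31.3% of these reads in WT, 20.6 to 44.8% in Me-X04- and 31.3 to 56.8% in Me-X04+. The libraries fell into a set A of 7 and a set B of 9 by the first principal component (37.8% of the variance within groups), and both sets held libraries of all 3 groups. The study used 2 sequencers, and its text does not tell which library was run on which. Libraries scaled by reads outside mitochondrial genes moved the median log2 fold change (log2FC) of all genes between Me-X04+ and Me-X04- from -0.09 to -0.37. Of 10 general microglia markers all 10 were in the table, with a summed RPKM of 5331 to 6898 in WT, 4797 to 8034 in Me-X04- and 8340 to 12060 in Me-X04+ libraries. The disease-associated list, which includes Apoe, Itgax and Cst7, had 18 of 20 genes that passed the limma test described with the comparison and were higher in Me-X04+ than in Me-X04-.

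The promoters of the 9 genes are shown first where the RefSeq table (GRCm38.p6) holds them. It had windows of 300 bases, 250 before and 50 from the transcription start on, for 6 of the 9 genes and no entry for Tmem119, Selplg and Gpr34. The 3 windows below belong to Crybb1, the gene that fell most, and to Fcrls and Slco2b1, the only ones of the 6 genes with the letters GAGGAA that PU.1 binds. Crybb1 is at chr5:112255570-112255869 on the + strand, Fcrls at chr3:87263475-87263774 on the - strand and Slco2b1 at chr7:99711291-99711590 on the - strand, the outermost of its 3 windows. Capitals mark TATAAA in Crybb1 and GAGGAA in the other two.
Crybb1: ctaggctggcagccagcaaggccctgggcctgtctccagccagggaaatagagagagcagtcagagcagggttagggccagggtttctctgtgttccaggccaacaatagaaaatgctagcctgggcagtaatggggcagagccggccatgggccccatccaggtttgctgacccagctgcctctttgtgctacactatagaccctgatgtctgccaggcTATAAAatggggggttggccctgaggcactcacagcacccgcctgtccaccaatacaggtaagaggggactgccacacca
Fcrls: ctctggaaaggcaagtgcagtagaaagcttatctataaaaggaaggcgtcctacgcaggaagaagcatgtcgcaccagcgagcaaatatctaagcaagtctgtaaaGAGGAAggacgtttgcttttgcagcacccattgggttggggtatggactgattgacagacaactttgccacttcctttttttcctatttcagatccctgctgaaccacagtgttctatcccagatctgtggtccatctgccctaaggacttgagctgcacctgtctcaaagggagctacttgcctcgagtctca
Slco2b1: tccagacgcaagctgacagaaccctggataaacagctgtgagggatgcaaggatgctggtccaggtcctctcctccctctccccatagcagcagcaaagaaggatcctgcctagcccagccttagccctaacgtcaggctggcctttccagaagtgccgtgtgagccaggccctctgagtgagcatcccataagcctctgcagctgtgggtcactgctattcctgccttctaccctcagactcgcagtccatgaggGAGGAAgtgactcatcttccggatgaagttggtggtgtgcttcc

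In the Crybb1 window TATAAA began at position -30 from the start, the usual place of a TATA box. A search for these letters, chosen after the sequence had been seen, found them in 13.6% of all 32851 windows. Among the members it found them in the Fcrls window too, at position -217, where they are not in capitals. GAGGAA, searched on both strands, was in 2 of the 6 genes (4 of the 8 windows, 3 of them of Slco2b1) and in 28.3% of all windows. It began at position -144 in Fcrls, and began at base 7, counting the start as base 1, in the Slco2b1 window shown. None of the 8 windows held CTATTTNTA (MEF2, in 1.34% of all windows), GTCTAGAC (SMAD, 0.213%) or GAAANNGAA (IRF, 8.56%) on either strand.

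In WT microglia all 9 genes were abundant. Each had a mean level above that of at least 97.7% of the genes of the table. Sparc was highest, with a mean of 9.43 ± 0.34 (SD, n = 7), followed by Cx3cr1 (9.19 ± 0.75), Fcrls (8.25 ± 0.13), Tmem119 (8.16 ± 0.49), Gpr34 (8.11 ± 0.40), Selplg (7.23 ± 0.69), Olfml3 (6.98 ± 0.22), Slco2b1 (6.93 ± 0.28) and Crybb1 (5.75 ± 0.38). Most neighbours in this order did not differ beyond their spread. Cx3cr1 was above Fcrls in 7 of 7 WT libraries and Slco2b1 above Crybb1 in 7 of 7, whereas the other neighbours exchanged places in at least 2 libraries. In Me-X04+ microglia Tmem119 stood 7th instead of 4th, at 6.61 ± 0.69 (SD, n = 4). Crybb1 stayed last, and there it was 3.21 ± 0.88 (SD, n = 4) below Slco2b1, beside 1.18 ± 0.47 (SD, n = 7) in WT. The position of Crybb1 among all genes went from above 97.7% of them in Me-X04- to above 78.1% in Me-X04+.

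**Figure D1:**
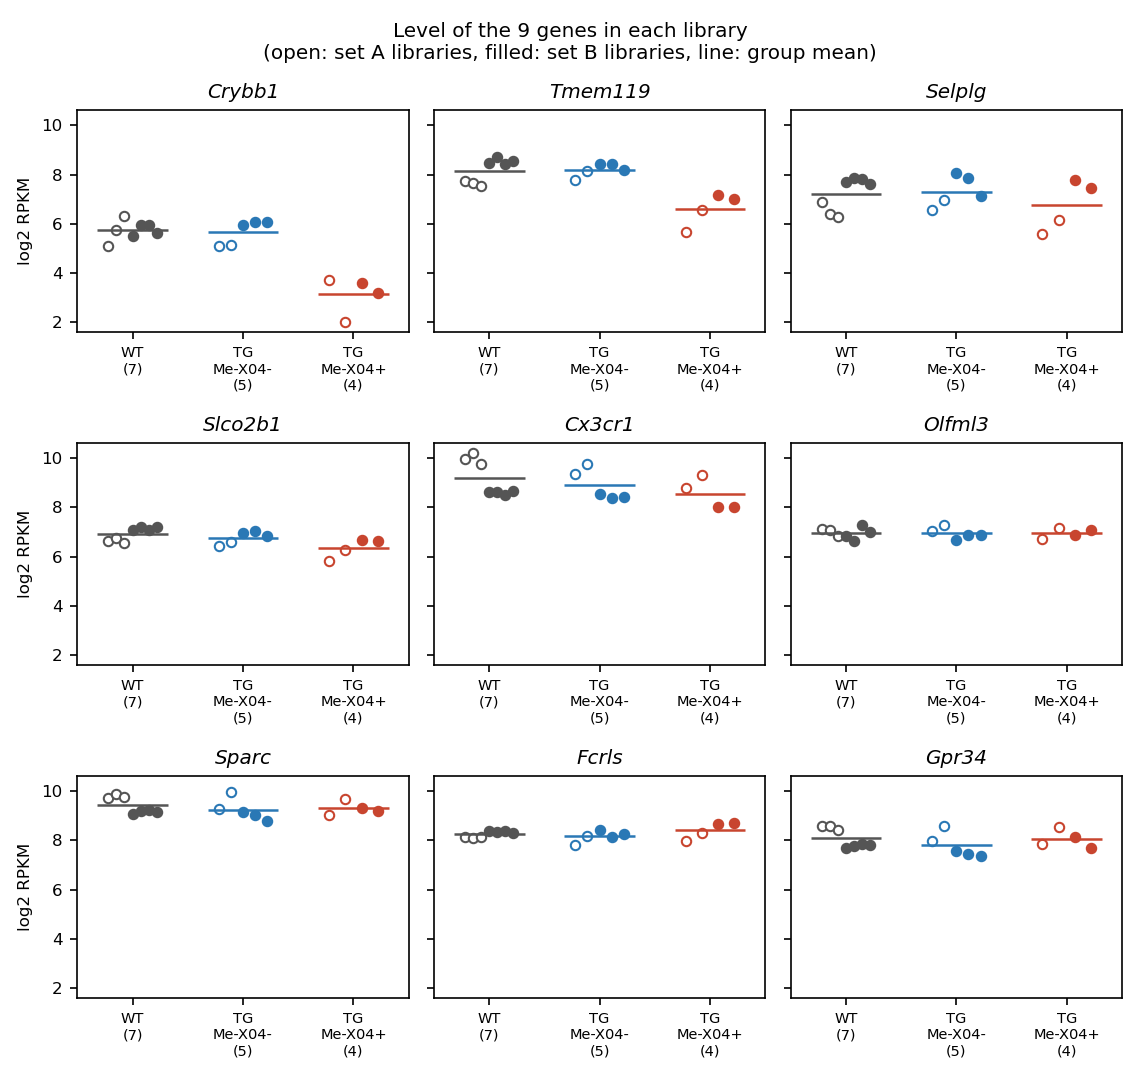
Level of each of the 9 genes (log2 RPKM, vertical axis) in each library of the 3 groups (horizontal axis), with open circles for set A, filled circles for set B and a line at the group mean. Crybb1 and Tmem119 are the genes whose Me-X04+ values lie wholly below the other groups. In WT the sets, which were drawn from the values of all genes, these included, are apart for 7 of the 9 genes.

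Between Me-X04+ and Me-X04- microglia 2 of the 9 genes were differentially expressed (DE), Crybb1 and Tmem119, and both were lower in Me-X04+. The other 7, among them the receptors Cx3cr1 and Gpr34 and the secreted proteins Sparc and Olfml3, did not pass the test. A gene was called DE by limma where p, adjusted after Benjamini-Hochberg for the 17951 genes, was under 0.05 and the log2FC was 0.7 or more in size. Of all genes 5.49% were DE in this comparison, and 2.06% were DE and lower. In bulk RNA, fewer cells with a gene and less of its RNA per cell cannot be told apart.

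Crybb1 was between 3.21 and 3.71 in 3 Me-X04+ libraries and 2.03 in the other one, with 59 to 275 reads. In Me-X04- its values were 5.12, 5.14, 5.95, 6.09 and 6.08, and in WT they ran from 5.11 over a median of 5.76 to 6.31, with at least 562 reads in every library of both groups. The Me-X04+ values thus lay wholly below those of both other groups. The log2FC against Me-X04- was -2.53 ± 0.34 (SE), a 5.78-fold lower level, with an adjusted p of 0.000447 by limma and a 95% interval from -3.24 to -1.82.

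Tmem119 was 5.66, 6.58, 7.19 and 7.01 in the Me-X04+ libraries. It was 7.79, 8.15, 8.41, 8.42 and 8.17 in the Me-X04- libraries, and in WT it ran from 7.55 over a median of 8.44 to 8.71. Here too the Me-X04+ values did not overlap with either group. The log2FC was -1.58 ± 0.32 (SE), a 2.99-fold lower level, with an adjusted p of 0.00821 by limma and a 95% interval from -2.26 to -0.89. Over all genes the values of these groups did not overlap for 7.93%.

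The plot of levels shows why the sets were kept in view. In WT the set A values lay wholly below set B for Tmem119, Selplg, Slco2b1 and Fcrls, and wholly above it for Cx3cr1, Gpr34 and Sparc. The sets were drawn from the values of all genes, these included, so such gaps are in part built in. How many of all genes have them was not counted. Selplg differed by -1.25 (mean of set A minus set B) and Cx3cr1 by 1.37, so the spread between sets was larger than the log2FC between the groups for both. Set A alone gave Crybb1 a log2FC of -2.26 and set B alone one of -2.62, and that of Tmem119 was -1.85 and -1.23. A test of whether the sets differed in log2FC (interaction in limma, chosen after the data were seen) had its lowest unadjusted p for Selplg (0.0583, adjusted p 0.459) and gave 0.497 as adjusted p for Tmem119 and 0.866 for Crybb1.

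**Figure D2:**
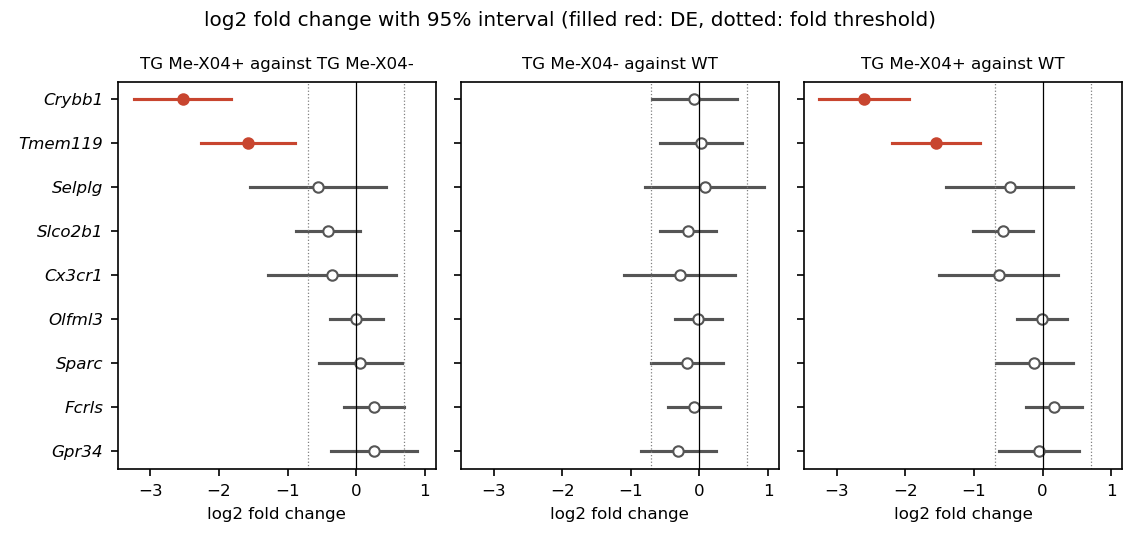
log2FC (horizontal axis) of each gene with its 95% interval from limma in the 3 comparisons, filled red where DE, with dotted lines at the fold threshold of 0.7. Crybb1 and Tmem119 are DE in both comparisons that involve Me-X04+, and none of the 9 genes is DE between Me-X04- and WT.

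Comparing the libraries of the same animal label showed a smaller, repeated difference for 3 more genes. Selplg, Cx3cr1 and Slco2b1 were lower in Me-X04+ than in Me-X04- in 4 of 4 animals, as were Crybb1 and Tmem119. How many of all genes were lower in 4 of 4 animals was not counted, so the number of such members cannot be called unusual. The differences in Cx3cr1, the fractalkine receptor, were -0.59, -0.45, -0.49 and -0.35 in animals 1 to 4. These animals differed far less in the difference (SD 0.10) than the libraries did in level. The differences in Slco2b1, the transporter, were -0.60, -0.30, -0.29 and -0.41, and those in Selplg were -0.94, -0.79, -0.28 and -0.39. With 4 pairs an exact two-sided permutation test cannot give a p under 0.125.

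None of the 3 genes was DE, and a block by animal label in limma did not change this (adjusted p 0.312 for Selplg, 0.124 for Slco2b1 and 0.478 for Cx3cr1). That block uses 1 correlation for all genes, so differences in level between animals stay in the error. A paired fit of the TG libraries alone, with an effect per animal, was not run. Without the block the log2FC was -0.56 for Selplg, with a 95% interval from -1.55 to 0.43 and an adjusted p of 0.584 by limma. It was -0.42 for Slco2b1, from -0.88 to 0.05, with an adjusted p of 0.338, and -0.35 for Cx3cr1, from -1.28 to 0.57, with an adjusted p of 0.728. With a term for the sets in limma the adjusted p was 0.0372 for Cx3cr1 and 0.0344 for Slco2b1, at log2FCs of -0.48 and -0.37 that are below the fold threshold. The sets were drawn from the spread of these same values, so a p with that term can be too low. After quantile normalization Cx3cr1 and Slco2b1 were DE, at -1.18 and -1.06. The values also moved with single libraries. Leaving out 1 library gave -0.90 to -0.18 for Selplg, lowest without Me-X04+ library 3 and nearest 0 without Me-X04+ library 1. It gave -0.62 to -0.13 for Cx3cr1, without Me-X04+ library 2 and Me-X04- library 2, and -0.52 to -0.24 for Slco2b1, without Me-X04+ libraries 3 and 1.

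**Figure D3:**
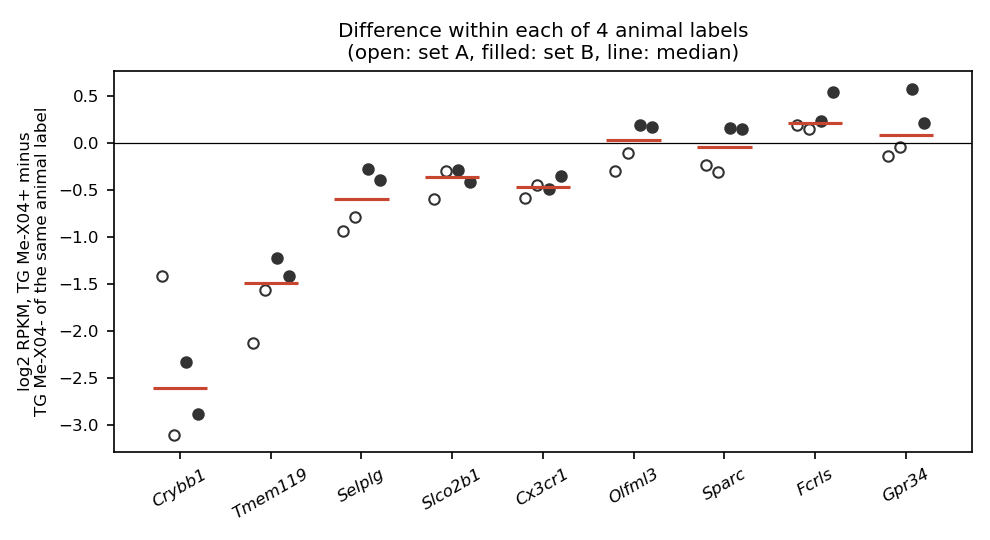
Difference in log2 RPKM between the Me-X04+ and the Me-X04- library of the same animal label (vertical axis) for each gene (horizontal axis), 1 point per animal, open for set A and filled for set B, with a line at the median. Crybb1, Tmem119, Selplg, Cx3cr1 and Slco2b1 lie below 0 in all 4 animals, and Fcrls lies above 0 in all 4.

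The remaining 4 genes did not pass the test, and their log2FCs lay between 0.0025 and 0.26. Fcrls, the scavenger receptor-like gene, was 7.99, 8.32, 8.66 and 8.69 in Me-X04+ against 7.80, 8.17, 8.42, 8.15 and 8.27 in Me-X04-. It was the only one of the 9 with a higher value in Me-X04+ in 4 of 4 animals, by 0.15 to 0.55, and its log2FC was 0.25 (95% interval -0.18 to 0.69, adjusted p 0.565 by limma). Gpr34, the lysophosphatidylserine receptor, ranged from 7.68 to 8.56 in Me-X04+ and from 7.38 to 8.60 in Me-X04-, with a log2FC of 0.26 (95% interval -0.37 to 0.88).

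Olfml3 and Sparc, the secreted proteins, had log2FCs of 0.0025 (95% interval -0.39 to 0.39) and 0.06 (-0.54 to 0.66). Olfml3 spread little in every group, from 6.74 to 7.16 in Me-X04+ and from 6.69 to 7.27 in Me-X04-, and these ranges nearly coincide. Sparc, the most abundant of the 9, was 9.05, 9.66, 9.33 and 9.19 in Me-X04+ and ran from 8.78 to 9.96 in Me-X04-. The direction of all 4 genes changed with the scaling. Each of the log2FCs of Fcrls, Gpr34, Olfml3 and Sparc turned negative after quantile normalization (-0.51, -0.51, -0.65 and -0.71) and when the libraries were scaled by reads outside mitochondrial genes (-0.020, -0.016, -0.27 and -0.21). With the deposited scaling the lowest end of the 4 intervals was the -0.54 of Sparc, above the log2FC of -1.58 of Tmem119. The values after quantile normalization lay below the lower end of the interval for each of the 4 genes.

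Between Me-X04- and WT microglia none of the 9 genes was DE by limma, beside 0.201% of all genes. At an unadjusted p under 0.05 there were also 0 of 9, and limma voom on the recovered reads called 0 as well. Crybb1 and Tmem119, which fell in Me-X04+, had log2FCs of -0.073 (95% interval -0.69 to 0.55) and 0.025 (-0.57 to 0.62) here. Their Me-X04- values lay within the range of WT. The largest difference was that of Gpr34, at -0.31 (95% interval -0.85 to 0.24). The next was that of Cx3cr1, at -0.29 (-1.10 to 0.52). Over both sets together, in no gene were the groups apart, beside 1.06% of all genes whose values did not overlap. Tmem119 was apart within each set, but higher in Me-X04- in set A (0.32) and lower in set B (-0.21). Within set B Crybb1 (0.28), Gpr34 (-0.32) and Slco2b1 (-0.20) were apart as well. How many of all genes were apart within a set was not counted. The same comparison had 8 of the 20 disease-associated genes DE, all of them higher.

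Between Me-X04+ and WT the same 2 genes were DE, both lower, beside 14.3% of all genes DE in either direction and 6.02% DE and lower. The log2FC was -2.60 ± 0.31 (SE) for Crybb1, with an adjusted p of 2.6e-05 by limma, and -1.55 ± 0.30 (SE) for Tmem119, with an adjusted p of 0.00179. Their values did not overlap between the groups, beside 10.5% of all genes. These Me-X04+ libraries are those of the comparison with Me-X04-, so the 2 comparisons share them.

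Slco2b1 came nearest among the others, with a log2FC of -0.58 (95% interval -1.01 to -0.14) and an adjusted p of 0.0727 by limma. Its level was 5.83, 6.28, 6.67 and 6.63 in Me-X04+ and between 6.54 and 7.2 in WT, so the groups overlapped. Within set A it differed by -0.59 and within set B by -0.49, and in each set the groups were apart. Cx3cr1 had a log2FC of -0.64 (95% interval -1.51 to 0.22, adjusted p 0.342), and within the sets of -0.92 and -0.56 with the groups apart in both. How many of all genes were apart in both sets was not counted, so these gaps cannot be called unusual. With a term for the sets the log2FC of Cx3cr1 was -0.73 and its adjusted p by limma 0.00065, past both thresholds. That p can be too low, because the sets were drawn from the spread of these same values. With a block by animal label the log2FC was -0.69 and the adjusted p 0.267, and Cx3cr1 was not DE. A block by replicate number, which ties WT animals to unrelated TG animals, gave -1.04 and 0.00936. Selplg, at -0.48, differed by -0.63 in set A and by -0.15 in set B.

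Tmem119 and Selplg are neighbours on chromosome 5 and run in the same direction. On GRCm38, Tmem119 (ENSMUSG00000054675) lies at 113793729 to 113800516 and Selplg (ENSMUSG00000048163) at 113818536 to 113832644, both on the - strand, with 18019 bases between them and only a processed pseudogene, Gm19931, annotated wholly in the gap. The difference between the genes in 1 library does not change when that library is rescaled by a factor. In WT Tmem119 was above Selplg by 0.61 to 1.29 log2 units (median 0.87), and in Me-X04- by 0.36 to 1.24 (median 1.02). In Me-X04+ the difference was 0.05, 0.42, -0.58 and -0.45. The Me-X04+ range thus overlapped with that of Me-X04- and lay below that of WT, and the Me-X04+ values lay below those of Me-X04- in both sets.

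**Figure D4:**
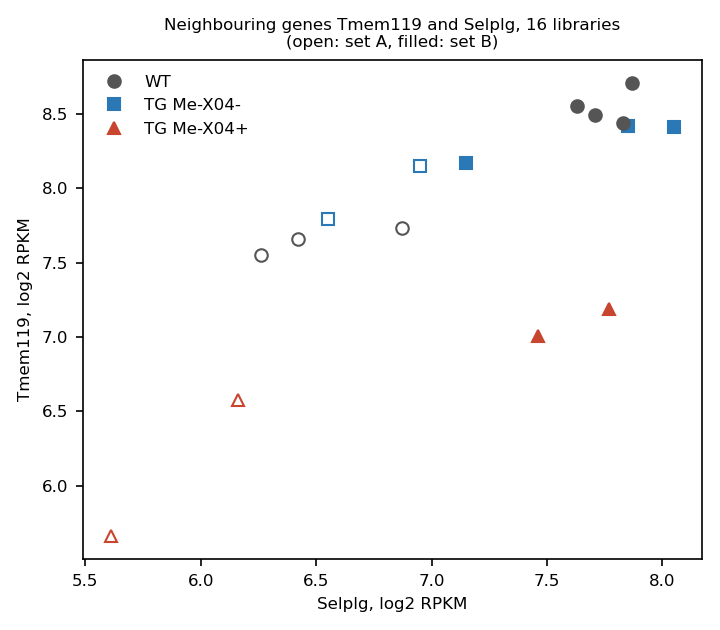
Tmem119 (vertical axis) against Selplg (horizontal axis), both in log2 RPKM, for the 16 libraries, with a symbol and colour per group, open for set A and filled for set B. At a like level of Selplg within a set, the Me-X04+ libraries sit lowest in Tmem119, and set B lies to the right of set A.

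Crybb1 (ENSMUSG00000029343, chromosome 5, 112255815 to 112269585, + strand) has another crystallin gene, Cryba4, head to head with it, 3296 bases away. Cryba4 had means of 4.02 in WT, 3.65 in Me-X04- and 2.27 in Me-X04+. Its log2FC between Me-X04+ and Me-X04- was -1.39, with an adjusted p of 0.238 by limma. On the other side, 7105 bases away, lies Tpst2, a tyrosine sulfotransferase that can modify PSGL-1. Its log2FC was -0.84 (adjusted p 0.0602) against Me-X04- and -1.2 (adjusted p 0.00184) against WT, where it was DE.

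Other genes near the members were counted too. Of 48 genes that are no members, in the table and within 100000 bases of one, 1 was DE between Me-X04+ and Me-X04- (Gm10705, a processed pseudogene near Fcrls, at 0.90), which is 2.08% beside 5.49% of all genes. Between Me-X04+ and WT 12 were DE, which is 25% beside 14.3% of all genes. Gpr34 (chromosome X, 13632089 to 13640858, + strand) lies inside Cask on the opposite strand, and Cask had a log2FC of 0.07 between Me-X04+ and Me-X04-. Slco2b1 (chromosome 7, 99657804 to 99711340, - strand) overlaps with the antisense gene Gm15635, which had means of 6.44 in WT, 5.92 in Me-X04- and 5.73 in Me-X04+. Its log2FC against WT was -0.70, with an adjusted p of 0.0261, and it was DE. Whether the counting used strand is not stated in the sources used here, so reads of the 2 cannot be told apart. The annotated span of Cx3cr1 (chromosome 9, 119901616 to 120069879, - strand) overlaps with Wdr48 in part and covers Gorasp1, Csrnp1 and Xirp1. The highest mean of these in WT was the 3.55 of Wdr48, far below Cx3cr1.

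The 30 other homeostatic genes examined, all in the table, had 15 log2FCs above 0 and 15 below it. In Me-X04+ against Me-X04-, 2 were DE and lower, 1 was DE and higher and 27 did not pass, beside 5.49% of all genes DE. The median log2FC was -0.02 beside -0.09 over all genes and -0.35 over the 9. The lowest was Txnip, a thioredoxin-interacting protein, at -1.31 (adjusted p 0.00105 by limma). The higher one was Tgfbr2, the type II TGF-β receptor, at 1.06 (adjusted p 0.0289), and this call was lost in 10 of 30 alternatives. Those were limma without a trend, median centring, quantile normalization, scaling outside mitochondrial genes, the 2 groups alone, and leaving out Me-X04- library 3, 4 or 5 or Me-X04+ library 1 or 2. The genes DE after quantile normalization (10) and after scaling outside mitochondrial genes (4) were all lower. The cysteine protease gene Ctss had the highest log2FC, 1.2, and did not pass (adjusted p 0.0868). P2ry12, the purinergic receptor most used as a homeostatic marker, was at -0.45 (adjusted p 0.431) and its neighbour P2ry13 at -0.80 (adjusted p 0.137). The block by animal label in limma (duplicateCorrelation) raised the count of DE genes among the 30 from 3 to 7, and that among all genes from 986 to 2110.

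Against WT, 9 of the 30 genes were DE in Me-X04+, 6 of them lower, beside 14.3% of all genes DE and 6.02% DE and lower. The lower ones included Txnip (-1.75), Adora3 (-1.17), P2ry13 (-1.02), P2ry12 (-0.97) and Cmtm6 (-0.91), and the higher ones Ctss (1.58), Tgfbr2 (1.14) and C1qb (1.02), a chain of complement C1q. After quantile normalization 15 were DE, all lower. The call of C1qb was lost also with scaling outside mitochondrial genes and without Me-X04+ library 2, 3 or 4, that of Cmtm6 without library 1, that of P2ry13 without library 3 and that of P2ry12 without library 4 of Me-X04+. Between Me-X04- and WT none was DE by limma or by limma voom, and 3 had an unadjusted p under 0.05.

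Of 16 measured factors upstream of homeostatic genes, 1 was DE in Me-X04+ against Me-X04-, beside 5.49% of all genes. It was the receptor Tgfbr2, with the limits already given, and the median log2FC of the 16 was -0.06. The lowest were Nrros, which tethers latent TGF-β, at -0.99 (adjusted p 0.292) and Mef2a, a MEF2 factor, at -0.56 (adjusted p 0.149). Irf8, a microglial transcription factor, was the second highest at 0.50 (adjusted p 0.134). Against WT, Tgfbr2 was DE and higher and Mef2a was DE and lower at -0.88 (adjusted p 0.00561). Spi1, which encodes PU.1, and Sall1 had log2FCs of -0.06 and -0.54 between Me-X04+ and Me-X04-, with adjusted p of 0.949 and 0.301.

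The enzymes that make PSGL-1 able to bind selectins were followed because Selplg is a member. Of 9 measured, 1 was DE in Me-X04+ against Me-X04-, beside 5.49% of all genes. It was B4galt1, a galactosyltransferase, at -1.08 (adjusted p 0.0166 by limma), and the median log2FC of the 9 was -0.42. Tpst2, given above, was the second lowest, and C1galt1 (0.60) and Tpst1 (0.59) were the highest and did not pass. Against WT 2 were DE, beside 14.3% of all genes, Tpst2 lower and its paralogue Tpst1 higher (1.16, adjusted p 0.0164 by limma). Tpst1 was not DE without Me-X04+ library 3. Of 10 genes for the ligands of the receptors or their processing only 4 were in the table. None of these 4 was DE between Me-X04+ and Me-X04- by limma or limma voom, 0 with an unadjusted p under 0.05, and their log2FCs ran from -0.15 for Adam10 to 0.34 for Abhd12, a lipase of lysophosphatidylserine. Against WT, Abhd12 was DE and higher at 0.78 (adjusted p 0.0119), but not after quantile normalization (0.11) or scaling outside mitochondrial genes.

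Paralogues and other relatives of the 9 genes were mostly low, and 13 of 34 were in the table. In Me-X04+ against Me-X04-, 3 were DE, all lower, beside 2.06% of all genes DE and lower, and the median log2FC was -1.01. Among these were Slco4a1, a transporter of the same superfamily as Slco2b1, at -3.20 (adjusted p 0.0174), and Olfml2b, a relative of Olfml3, at -2.24 (adjusted p 0.00299). Slco4a1 had 3 to 154 reads in Me-X04+ libraries and 241 to 671 in Me-X04- libraries, and Olfml2b 17 to 149 and 226 to 419. The highest were Ccrl2 (0.87) and Gpr82 (0.18), the gene beside Gpr34.

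Against WT 7 of the 13 were DE, beside 14.3% of all genes. Those lower included Slco4a1 (-3.25), Olfml2b (-2.11), Ccr2 (-1.57), Fcrl1 (-1.32), an Fc receptor-like relative of Fcrls, and Ccr3. Ccr3, a chemokine receptor gene, had at most 1 read in a Me-X04+ library and 14 to 157 in WT. Ccrl2 was higher at 1.73, a call lost without Me-X04+ library 2 or 4. The call of Fcrl1 was lost in 16 of 30 alternatives, 11 of which left out 1 library.

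**Figure D5:**
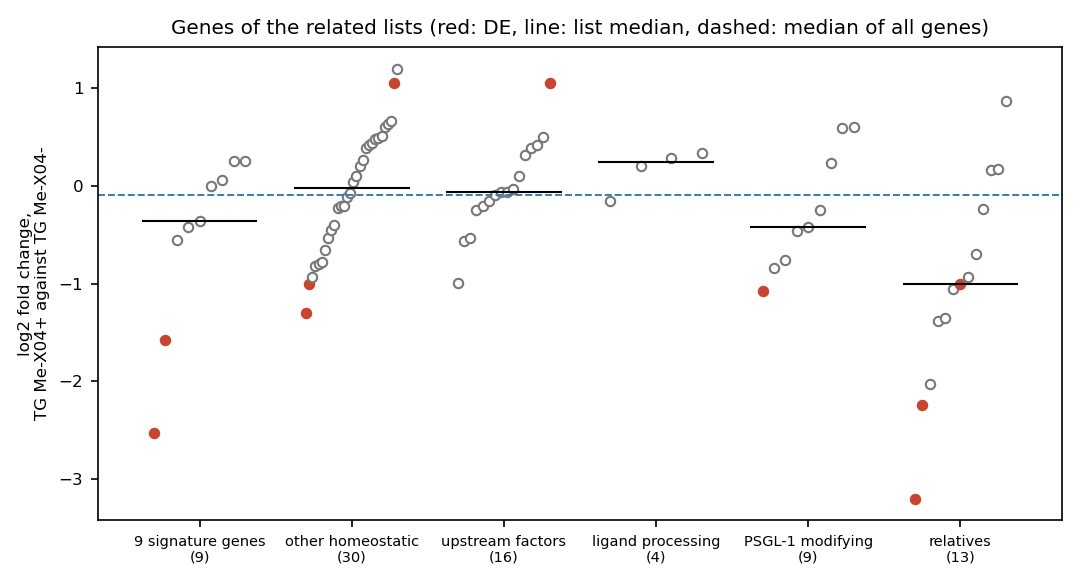
log2FC between Me-X04+ and Me-X04- (vertical axis) of each measured gene of 6 lists (horizontal axis, with the number of genes), red where DE, with a line at each list's median and a dashed line at the median of all genes. The 9 genes have a median of -0.35, with Crybb1 and Tmem119 the lowest, and the 30 other homeostatic genes lie on both sides of 0 with a median of -0.02.

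Genes with a pattern like that of Crybb1 and Tmem119 were sought by Pearson correlation with the mean z-score of both over the 16 libraries, among 7454 genes with a mean log2 RPKM of at least 2. Since the groups shape this pattern, a fall in Me-X04+ is built into the choice. The 5 most alike outside the 9 were Camk2n1 (r = 0.95), an inhibitor of CaM kinase II, Serpinf1 (0.94), which encodes the secreted PEDF, Ggta1 (0.94), a galactosyltransferase, Gm42944 (0.94) and Stab1 (0.94), a scavenger receptor also used as a marker of border macrophages. All libraries share the sets, and after the mean of each set was removed, r was 0.93 to 0.96 for these 5. Their means in Me-X04+ were 0.29, 0.076, 1.09, -0.94 and 2.13, beside 3.17, 3.12, 4.34, 3.52 and 4.55 in WT.

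Within the 9, Slco2b1 was closest to the pattern (r = 0.82, and 0.85 without the set means), followed by Selplg (0.59 and 0.56). Cx3cr1 had an r of 0.02 that became 0.81 once the set means were removed. Fcrls went from -0.10 to -0.58, and Olfml3, Sparc and Gpr34 lay between -0.31 and 0.25 either way.

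Markers of other cell types were summed in each library. The 8 markers of border macrophages summed to an RPKM of 17.2 to 40.0 in WT, 18.9 to 29.1 in Me-X04- and 6.97 to 25.9 in Me-X04+. Stab1 was by far the most abundant of them, with a mean log2 RPKM of 4.55 in WT, and the next was Mrc1 at 0.91. It was Stab1 that was DE and lower in Me-X04+, and the other 7 were not DE between Me-X04+ and Me-X04-. Of the 8 log2FCs, 5 were above 0 and 3 below it against Me-X04-, and 6 above and 2 below against WT. Of 7 monocyte markers 2 were in the table, with sums of 0.98 to 9.10 over all libraries, and of 7 neutrophil markers 3, with 0.4 to 26.0. Over all libraries the 4 measured astrocyte markers summed to 10.4 to 29.2, the 3 endothelial to 1.23 to 13.6, the 4 oligodendrocyte to 1.11 to 8.10, the 1 mural to 0.127 to 4.87, the 2 B cell to 0.503 to 4.47, the 4 neuronal to 0.212 to 1.96 and the 1 T or NK cell marker to 0.0327 to 0.269. Against Me-X04-, the endothelial marker Flt1, a VEGF receptor, was DE and higher in Me-X04+ (log2FC 3.55, adjusted p 0.00608 by limma), with 200 to 458 reads beside 6 to 59. Against WT, Stab1 (border macrophage), Pecam1 (endothelial), Snap25 (neuronal) and Ccr2 (monocyte) were DE and lower in Me-X04+, at -2.42, -4.83, -3.19 and -1.57. Flt1 was DE and higher there, with 0 to 13 reads in WT libraries, so the 2 DE endothelial markers went opposite ways. Pecam1 and Snap25 had 0 reads in at least 1 Me-X04+ library. The reads of Pecam1 reached 878 in another, beside 229 to 1864 in WT. In Me-X04+ the ranges of the summed border macrophage, astrocyte and neutrophil markers overlapped with that of Crybb1 on the RPKM scale. Those of the endothelial, oligodendrocyte, monocyte and B cell markers did so too. The sums of the mural, neuronal and T or NK cell markers lay below Crybb1. No measured marker was at 0 reads in every library of a group. Their part in the results was not tested.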

How the data were processed

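RNA of sorted microglia was sequenced in 16 libraries. Per the labels and the study's methods, the authors trimmed reads (Trim Galore 0.4.4), aligned them to GRCm38 (STAR 2.5.4b), counted them per gene (featureCounts) and deposited log2 RPKM values from edgeR 3.24.3 with TMM-scaled library sizes. Libraries were made by amplification (Ovation), and whether the counting used strand is not given in the sources used here. The deposited table also holds other columns: the gene length over which reads were counted, and the authors' own results for 2 comparisons (log2FC, mean expression, t, p, adjusted p and B), which were not used. All sample columns were mapped by name.

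The table lists 17951 genes. Of these 12919 have a symbol in the table and 4874 were given one by the reference annotation. Reads were recovered from the values, given a prior of 2 reads, and 100% came out whole within 0.01. The main test was limma 3.58.1 (R 4.3.3) on the log2 values with a trend, over all libraries, 2-sided, and p was adjusted after Benjamini-Hochberg for every gene of the table. DE meant under 0.05 after adjustment with a log2FC of 0.7 or more in size. A read floor of 3 was set, and no fold against a group under it is given. The methods of the study used a count test, which was replaced because the values are log2.

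The scripts were tested on simulated data. The alternatives were eBayes without a trend, array weights, other scalings, pseudocounts of 1 and 0.1, a filter at a mean of 0, no fold threshold, 2 groups only, limma voom, blocks, a term for the sets, and each library left out. TG libraries of 1 number share an animal label, and their deviations from group means correlated at 0.292 to 0.329 (n = 4 pairs), beside a mean of 0.272 for different numbers of the same set. WT libraries are other animals. Nothing else says how far libraries are separate preparations, so p-values measure the spread between these libraries.

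Genes named were the 9 members, the 2 highest and 2 lowest of each related list and its DE genes, neighbours within 100000 bases, and the 5 genes most like the DE members. P2ry12, Spi1 and Sall1 in Me-X04+ against Me-X04- microglia were named beside that rule, and an item of the lists that the rule would name is not reported here. The members and lists were chosen with earlier results of these data known. Python 3.11.15 was used for summaries. Promoters are from RefSeq (GRCm38.p6).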

Additional observations from a re-analysis of the deposited data

How the results depend on the processing

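Crybb1 and Tmem119 were DE in Me-X04+ under all 30 alternatives with a test, with log2FCs against Me-X04- of -2.81 to -2.16 and -2.23 to -1.26. With a block by replicate number, in which WT and TG animals of 1 number are unrelated, they were -2.45 and -1.49. That block made Cx3cr1 DE against WT (-1.04), the block by animal label did not (-0.69), and neither changed another member's call. After quantile normalization 4 members were DE against Me-X04- (Cx3cr1 -1.18 and Slco2b1 -1.06 besides) and 6 against WT (Cx3cr1 -1.5, Slco2b1 -1.24, Sparc -1.09 and Gpr34 -0.91 besides). Against WT, Cx3cr1 was also DE with a term for the sets (-0.73) and Slco2b1 with scaling outside mitochondrial genes (-0.74). Of the other homeostatic genes, 10 were DE against Me-X04- after quantile normalization, 5 by limma voom, 7 with the block by animal label and 9 with a term for the sets. Against WT 15 were DE after quantile normalization and 15 with a term for the sets, which also gave 1 between Me-X04- and WT. Over all genes the calls against Me-X04- went from 986 to 828, 1025, 2110 and 2142 under these 4 settings, in the order given. Against WT they went from 2562 to 2566 after quantile normalization and to 3919 with the set term. Between Me-X04- and WT the set term took them from 36 to 101. The sets were drawn from the spread of these same values, so calls with the set term can be too many. The causes of the other changes were not tested.

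Values near 0 changed sign. Against Me-X04- these were Fcrls (-0.51 quantile, -0.020 outside mitochondrial genes), Gpr34 (-0.51, -0.016), Olfml3 (-0.65, -0.27) and Sparc (-0.71, -0.21), and with the block Olfml3 (-0.037, by animal label -0.0031, with the set term -0.0099) and Sparc (-0.039). Between Me-X04- and WT they were Tmem119 (-0.16), Selplg (-0.084) and Crybb1 (0.14) with array weights, Fcrls (0.028), Olfml3 (0.099) and Crybb1 (0.041) outside mitochondrial genes, and Olfml3 with the block (0.052). Between Me-X04+ and WT they were Fcrls after quantile normalization (-0.63), Gpr34 (0.12) and Sparc (0.063) with array weights, and Olfml3 with median centring (0.0059) or the block (0.015). Within set A, without a test, Olfml3 (-0.20) and Sparc (-0.27) against Me-X04-, Tmem119 (0.32) and Crybb1 (-0.60) between Me-X04- and WT, and Sparc (-0.44) between Me-X04+ and WT moved beyond the spread.

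Leaving out 1 library at a time ended no call of a member. Other members moved without a change of sign, against Me-X04- Selplg from -0.90 to -0.18, Cx3cr1 from -0.62 to -0.13 and Slco2b1 from -0.52 to -0.24. Signs changed between Me-X04+ and Me-X04- for Olfml3 (-0.065 to 0.080) and Sparc (-0.057 to 0.24), between Me-X04- and WT for Tmem119 (-0.077 to 0.13), Fcrls (-0.15 to 0.0051), Olfml3 (-0.093 to 0.052), Selplg (-0.11 to 0.27) and Crybb1 (-0.18 to 0.067), and between Me-X04+ and WT for Gpr34 (-0.22 to 0.077) and Olfml3 (-0.079 to 0.062). Scaling outside mitochondrial genes turned the split of all DE genes against Me-X04- from 617 higher and 369 lower to 309 and 721, and quantile normalization gave 421 and 407. For the members that were not DE, the printed intervals hold only for the deposited scaling, with 4 to 7 libraries a group. After quantile normalization the log2FCs of Slco2b1, Sparc, Olfml3, Fcrls and Gpr34 against Me-X04- lay below the lower ends of their intervals.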
